A study of Mus musculus with 2 samples.

Results

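The genes described here encode the WNT ligands, their receptors, their secreted inhibitors and the core of the β-catenin branch of the pathway. They were taken by symbol from the table of RNA levels in the day 4 pregnant mouse uterus. The rule uses no values, but it was written with earlier results of these data known. The rule found 54 of 22740 genes: 19 Wnt ligands, 10 Frizzled receptors, 9 secreted inhibitors (the Sfrp and Dkk genes and Wif1), 7 R-spondins and Lgr receptors, and 9 co-receptors and intracellular genes. The samples were whole uteri of 2 C57BL/6 mice on day 4 of pregnancy, titled WT, with no treatment named in the labels and 1 library per animal, called uterus 1 and uterus 2 here. Both belong to 1 group, so the values describe levels in day 4 uterus and how far these animals lay apart, and no condition is compared. Levels are the authors' RPKM, read numbers scaled to transcript length and library size, so that genes can be compared per length. A whole uterus mixes epithelium, glands, stroma, muscle, vessels and leukocytes, and in such bulk RNA fewer cells of a type and less RNA per cell cannot be told apart.

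WNT proteins are secreted lipid-modified signals that bind Frizzled receptors at the surface of nearby cells. With the co-receptors Lrp5 or Lrp6 they stop the breakdown of β-catenin, which then enters the nucleus and activates genes with Tcf and Lef factors, while other WNT signals act without β-catenin on cell shape and polarity. In the mouse uterus the pathway is known for its roles in gland formation, in the epithelium's response to oestrogen and in the decidual reaction of the stroma, in which Wnt4 is required.

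The reads behind the RPKM values could be recovered, and they set the precision of each level. Uterus 1 had 3823351 and uterus 2 had 4249195, of which 11137 and 12101 fell on members. For 10 members the number of reads depends on the annotated length that was matched, and where it matters the smallest possible number is given too. Markers of the labelled tissue were present: 6 of 6 epithelial, 6 of 6 stromal, 5 of 5 smooth muscle and 4 of 4 endothelial genes reached 1 RPKM in both uteri, and summed marker RPKM of these lists ran from 131 (endothelium) to 4702 (stroma). Of the gland list, 4 of 5 genes were analysed here and 3 reached 1 RPKM, with a summed RPKM of 53.6 in uterus 1 and 83.0 in uterus 2. None of the 4 fat or 4 blastocyst markers reached 1 RPKM in both uteri, with Adipoq and Cdx2 listed at 0, while 3 of 5 ovary and oviduct markers did, at a summed 18.1 and 21.7 RPKM. Rpl26, a ribosomal protein gene that any cell needs, was also listed at 0 in both uteri, so a member listed at 0 is not read as absent.

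A gene was called detected at 1 RPKM or more in both uteri. Of the 54 members 35 (64.8%) were detected, against a background of 58.4% of all genes. A further 10 members (18.5%) were listed at 0 in both uteri, against 23.4% of all genes. The median member lay at a mean of 2.99 RPKM and the median gene of the table at 3.23 RPKM, so the family as a whole was not set apart from other genes by its level. The roles differed in how many of their members were detected: 8 of 19 ligands, 9 of 10 Frizzled receptors, 5 of 9 secreted inhibitors, 4 of 7 R-spondins and Lgr receptors, and 9 of 9 co-receptors and intracellular genes.

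**Figure D1:**
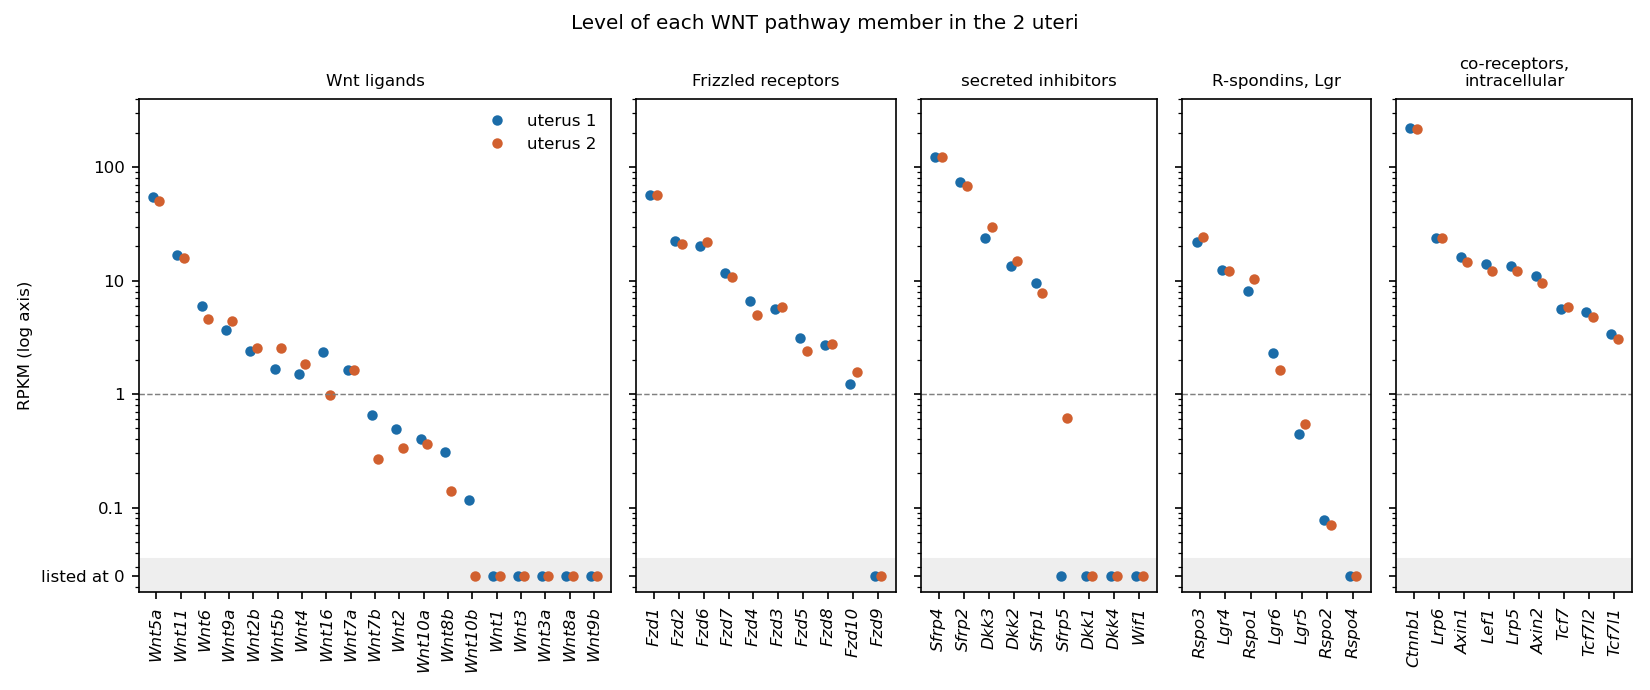
RPKM (log axis) of each of the 54 members in uterus 1 and uterus 2, grouped by role and ordered by mean level; the dashed line marks 1 RPKM and the grey band holds values listed at 0. Wnt5a, Fzd1, Sfrp4 and Ctnnb1 lead their roles, and 10 members lie in the band at 0 in both uteri.

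The ligands were led by Wnt5a and Wnt11, both best known for signalling without β-catenin. Wnt5a (NM_001256224, mouse build mm9, chromosome 14, 29324591 to 29338701) stood at 54.7 and 50.2 RPKM in uterus 1 and uterus 2, with 917 and 934 reads. Its mean of 52.4 ± 3.19 RPKM (SD, n = 2) was above that of 95.0% of all genes. Wnt11 lay at 16.7 and 15.8 RPKM on 179 and 188 reads. Wnt5a was thus 3.22 ± 0.0698 times Wnt11 (SD, n = 2), a gap far wider than the distance between the animals. Together they held 77.1% ± 0.0413 (SD, n = 2) of the summed RPKM of the 19 ligands, and Wnt5a alone held 58.8% ± 0.334. Wnt5b, the closest relative of Wnt5a, lay at only 1.67 and 2.57 RPKM. The large Wnt5b locus overlaps Fbxl14 on the other strand, which lay at 9.21 and 7.80 RPKM, and whether strand was used in counting is not given in the sources used here.

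Below these 2 genes the ligands formed a low group. Wnt6 lay at 5.93 and 4.54 RPKM and Wnt9a at 3.69 and 4.39 RPKM, so Wnt6 was the higher of the pair in both uteri. Their counting intervals overlapped, however: the 95% exact Poisson interval for uterus 2 ran from 3.25 to 6.19 RPKM for Wnt6 and from 3.37 to 5.63 RPKM for Wnt9a. These intervals hold the error of counting alone, as PCR copies of 1 molecule are counted apart. Wnt2b followed at 2.41 and 2.56 RPKM.

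The next ligands include those best studied in the uterus, and their order could not be settled. Wnt4, which the stroma uses in the decidual reaction, lay at 1.501 and 1.84 RPKM on 22 and 30 reads, with counting intervals of 0.941 to 2.27 RPKM in uterus 1 and 1.24 to 2.63 RPKM in uterus 2. Wnt7a, an epithelial ligand needed for uterine glands, lay at 1.64 and 1.63 RPKM on 20 and 22 reads (at least 10 and 11). Wnt16 reached 2.35 RPKM in uterus 1 against 0.987 RPKM in uterus 2, with 30 and 14 reads (at least 15 and 7). It was the only ligand with a mean above 1 RPKM that was not detected in both. The values of Wnt2b, Wnt5b, Wnt4, Wnt16 and Wnt7a overlapped with those of the next gene in this order, apart from Wnt7a, which lay above all lower ligands in both uteri.

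Of the remaining 10 ligands, 4 held reads in both uteri at under 1 RPKM. Wnt7b lay at 0.650 and 0.266 RPKM on 11 and 5 reads. Wnt2, Wnt10a and Wnt8b had at most 4 reads in either uterus. Wnt10b had 1 read in uterus 1 and was listed at 0 in uterus 2. Wnt1, Wnt3, Wnt3a, Wnt8a and Wnt9b were listed at 0 in both uteri. Several of these, such as Wnt1, Wnt3 and Wnt3a, are the ligands most often used to activate β-catenin.

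Of the ligand genes, 8 lie in pairs within 100000 bases of each other, a gene order kept from an ancient cluster. In these uteri no pair had both of its genes detected. Only 8 of all 19 ligands were detected, against 58.4% of all genes, so such pairs would be few in any case. Whether the pairs differ from other ligands was not tested. Wnt6 and Wnt10a lie on the same strand of chromosome 1 with 6699 bases between them (mm9, 74818466 to 74831893 and 74838593 to 74850749). Wnt6 lay at 5.93 and 4.54 RPKM, while Wnt10a lay at 0.399 and 0.359 RPKM. Wnt9a and Wnt3a stand start to start on chromosome 11 (mm9, 59120432 to 59147054 and 59061544 to 59104253), 16178 bases apart. Wnt9a was detected, while Wnt3a was listed at 0 in both uteri. Neither gene was detected in the other pairs, Wnt9b and Wnt3 on chromosome 11 and Wnt10b and Wnt1 on chromosome 15.

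The stretch before the gene start is shown for 4 members, because the pair Wnt9a and Wnt3a and the pair Fzd1 and Fzd9 contrast a detected gene with one listed at 0. They were chosen after the values were seen. The sequences are from RefSeq, build GRCm38.p6, and give the 250 bases before the start on the gene's own strand, 5′ to 3′, with each CG dinucleotide in capitals. CG dinucleotides are the sites of DNA methylation, and stretches rich in them, called CpG islands, cover the starts of many genes. The positions are chr11:59306680-59306929 on the plus strand for Wnt9a, chr11:59290752-59291001 on the minus strand for Wnt3a, chr5:4758217-4758466 on the minus strand for Fzd1 and chr5:135251048-135251297 on the minus strand for Fzd9.
Wnt9a: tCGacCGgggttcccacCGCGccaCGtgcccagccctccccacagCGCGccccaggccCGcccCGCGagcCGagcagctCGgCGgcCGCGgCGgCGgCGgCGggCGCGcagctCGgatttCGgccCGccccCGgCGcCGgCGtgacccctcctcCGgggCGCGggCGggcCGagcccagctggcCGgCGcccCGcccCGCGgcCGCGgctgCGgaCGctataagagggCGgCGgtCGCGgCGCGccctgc
Wnt3a: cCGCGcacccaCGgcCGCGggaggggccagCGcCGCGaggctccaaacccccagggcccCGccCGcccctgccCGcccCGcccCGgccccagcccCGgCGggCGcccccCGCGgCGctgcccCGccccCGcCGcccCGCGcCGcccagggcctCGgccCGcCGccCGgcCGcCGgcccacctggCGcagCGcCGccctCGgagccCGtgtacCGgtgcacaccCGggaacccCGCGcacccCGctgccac
Fzd1: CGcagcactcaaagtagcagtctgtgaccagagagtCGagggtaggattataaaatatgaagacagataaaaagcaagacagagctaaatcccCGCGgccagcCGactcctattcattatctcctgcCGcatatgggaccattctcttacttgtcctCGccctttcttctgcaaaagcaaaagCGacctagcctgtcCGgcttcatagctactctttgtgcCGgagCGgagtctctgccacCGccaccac
Fzd9: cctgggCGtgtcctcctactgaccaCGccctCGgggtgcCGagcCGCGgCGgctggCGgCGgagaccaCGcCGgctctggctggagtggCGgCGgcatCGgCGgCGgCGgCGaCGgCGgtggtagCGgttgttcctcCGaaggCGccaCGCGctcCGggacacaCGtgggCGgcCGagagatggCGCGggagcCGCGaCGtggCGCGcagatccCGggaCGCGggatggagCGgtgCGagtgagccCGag

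Wnt9a held 48 CG dinucleotides in this stretch and Wnt3a 41, although only Wnt9a was detected. Fzd1, the highest receptor, held 12, and Fzd9, listed at 0, held 42. The promoter table held 36 of the 54 members by symbol. Wnt5a, Sfrp4, Rspo3, Fzd2, Fzd6, Dkk3, Lrp5, Lrp6 and Axin1 were among those it did not hold, so the values below leave them out. The 23 detected members had a median of 25 CG dinucleotides, and the 8 listed at 0 in both uteri had a median of 22.5. Over all genes matched to the table, with the mean taken where a gene has several starts, the 9721 detected genes had a median of 16 and the 3824 listed at 0 a median of 2, with an upper quartile of 4. Of the 8 members listed at 0, Dkk1 had the fewest at 6, which is still above that quartile. These are descriptions of members picked by name, and methylation was not measured.

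The letters CTTTGAT, a core of the site that Tcf and Lef factors recognise, were searched on both strands of the same 250 bases, where the reverse strand reads ATCAAAG. They were found before Wnt11 and Wnt5b, 2 of 36 members (5.56%), in 3.27% of the 16365 genes matched to the table and in 3.21% of all its 32851 promoters. Wnt11 has 2 starts in the promoter table and Wnt5b 3, and which of these holds the letters is not given here. No other motif was searched. Axin2 had no match in this window, which says only that these letters are not there.

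**Figure D2:**
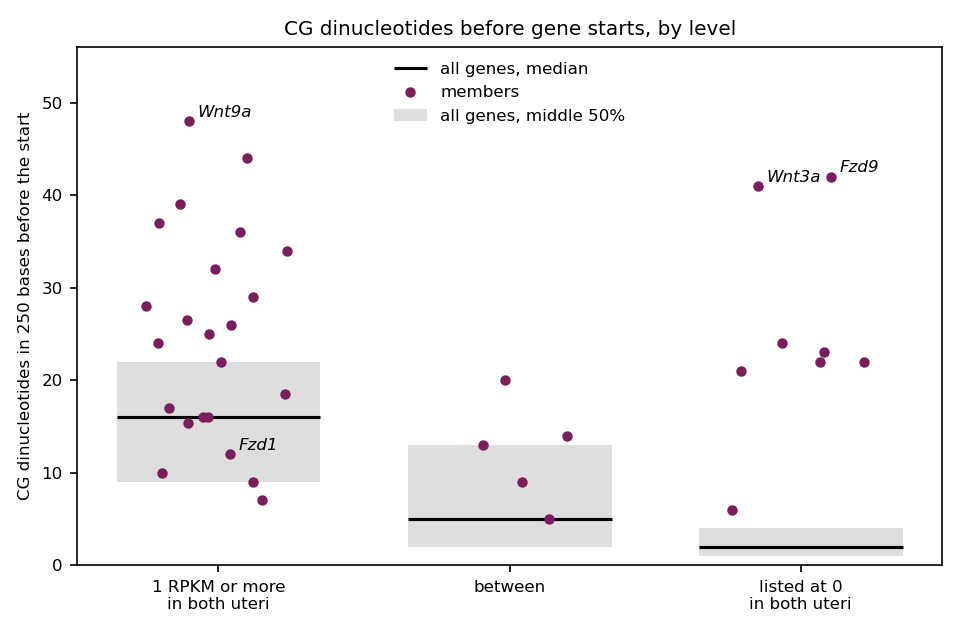
Number of CG dinucleotides in the 250 bases before the start of members (points) by level class, over the middle 50% (grey bar) and median (black line) of all genes of that class. Among genes listed at 0 in both uteri the median is 2 over all genes and 22.5 over the 8 members, and Fzd1 (12) lies below Fzd9 (42).

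Among the Frizzled receptors, the surface receptors that bind WNT proteins, Fzd1 was far ahead. Fzd1 (NM_021457, mm9, chromosome 5, 4753839 to 4758216) lay at 57.1 and 56.3 RPKM on 959 and 1049 reads. It held 43.9% ± 0.351 (SD, n = 2) of the summed RPKM of the 10 receptors and was 2.63 ± 0.102 times Fzd2. Fzd2 lay at 22.4 and 20.9 RPKM and Fzd6, a receptor tied to planar polarity, at 20.4 and 22.0 RPKM. The order of Fzd2 and Fzd6 switched between the uteri, so they were not told apart. Fzd7 came next at 11.7 and 10.8 RPKM.

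Lower receptors were spread over a range from 6.65 to 1.22 RPKM. Fzd4, which also binds the vascular ligand Norrin, lay at 6.65 and 4.97 RPKM, and Fzd3 at 5.59 and 5.85 RPKM, overlapping it. Fzd5 lay at 3.13 and 2.41 RPKM and Fzd8 at 2.73 and 2.74 RPKM, also overlapping. Fzd10 was lowest of those detected at 1.22 and 1.57 RPKM on 14 and 20 reads (at least 7 and 10), and Fzd9 was listed at 0. Of the 9 detected receptors, 4 lay above 10 RPKM in both uteri.

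The co-receptors Lrp6 and Lrp5, which join Frizzled to start β-catenin signalling, were both detected. Lrp6 lay at 23.6 and 23.5 RPKM on 846 and 938 reads (at least 423 and 469), and Lrp5 at 13.4 and 12.2 RPKM on 266 and 269 reads. Lrp6 was 1.84 ± 0.120 times Lrp5 (SD, n = 2), and the values of the 2 genes did not overlap.

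The secreted inhibitors held more summed RPKM than the ligands, the Frizzled receptors or the R-spondins with the Lgr receptors, although the Frizzled receptors held more reads (2308 and 2505, against 2046 and 2319). Sfrp proteins resemble the WNT-binding part of Frizzled and hold ligands outside the cell. Sfrp4 (NM_016687, mm9, chromosome 13, 19715044 to 19724692) stood at 123 and 124 RPKM with 826 and 927 reads, above 98.4% of all genes. Sfrp2 lay at 73.5 and 68.0 RPKM on 564 and 579 reads (at least 188 and 193). Sfrp4 was 1.74 ± 0.110 times Sfrp2 (SD, n = 2), and together they held 79.5% ± 1.75 of the summed RPKM of the 9 inhibitors. Sfrp1 was much lower at 9.49 and 7.85 RPKM. Sfrp5 was listed at 0 in uterus 1 and lay at 0.618 RPKM in uterus 2, on 5 reads or as few as 1. Frzb, the relative also called Sfrp3, whose symbol the rule does not take, lay at 7.50 and 7.56 RPKM.

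The Dkk genes split into detected genes and genes listed at 0. Dkk3, an unusual member that does not act on Lrp5 and Lrp6 as Dkk1 does, lay at 23.8 and 29.7 RPKM on 306 and 425 reads. Dkk2, which binds Lrp5 and Lrp6, lay at 13.4 and 15.0 RPKM on 191 and 237 reads. Dkk1, Dkk4 and the ligand-binding inhibitor Wif1 were listed at 0 in both uteri. Summed over their members, Sfrp genes reached 206 and 200 RPKM and Dkk genes 37.2 and 44.8 RPKM.

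Summed over the role, the inhibitors came to 243 and 245 RPKM and the ligands to 92.6 and 85.6 RPKM. The inhibitors were thus 2.74 ± 0.170 times the ligands (SD, n = 2), 2.62 in uterus 1 and 2.86 in uterus 2. The Frizzled receptors came to 131 and 128 RPKM, 1.45 ± 0.0533 times the ligands. These sums compare RNA per length and not protein, and they add genes of different cell types. They also follow the symbols that the rule takes, which include Dkk3 and leave out the inhibitors Frzb and Apcdd1.

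**Figure D3:**
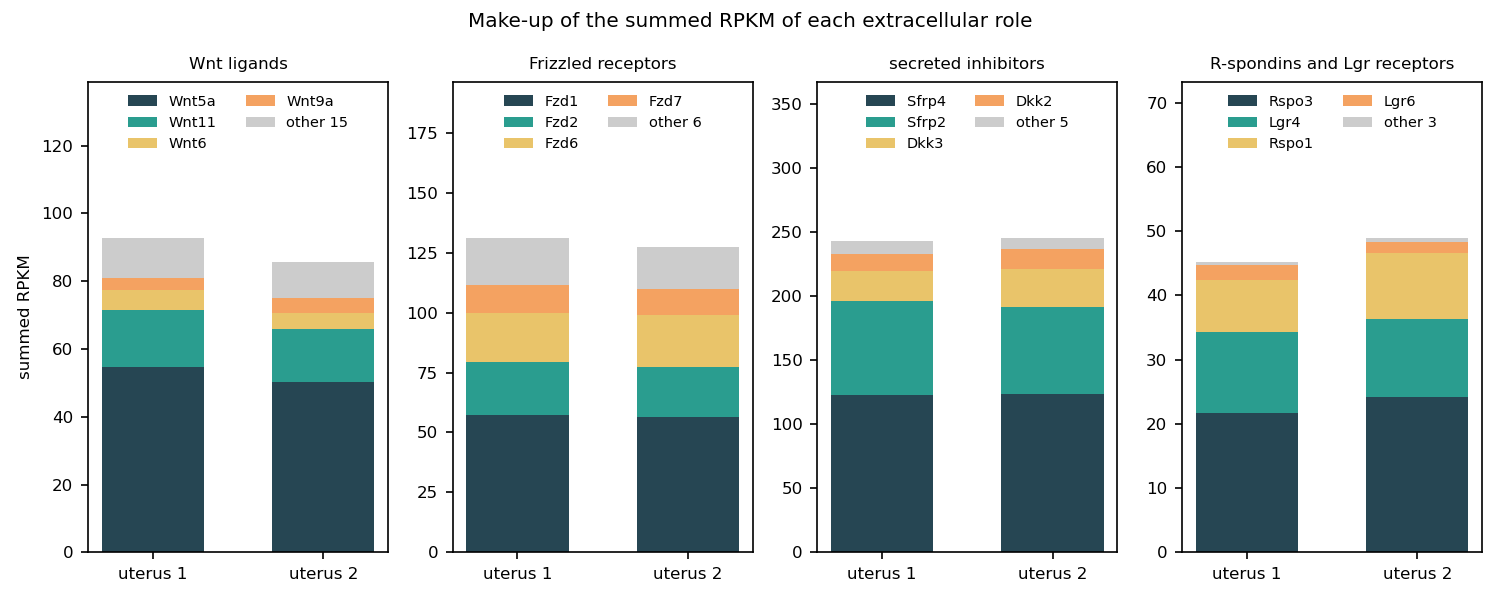
Summed RPKM of each extracellular role in uterus 1 and uterus 2, split into the 4 highest members of the role and the sum of the others; each panel has its own axis from 0. Wnt5a fills most of the ligand bar, and Sfrp4 with Sfrp2 fills most of the inhibitor bar, at nearly the same height in both uteri.

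R-spondins are secreted proteins that strengthen WNT signals through Lgr4, Lgr5 and Lgr6 by keeping Frizzled at the surface. Rspo3 was the highest of the 4 at 21.8 and 24.2 RPKM on 200 and 247 reads, and Rspo1 followed at 8.11 and 10.2 RPKM on 57 and 80 reads. Rspo3 was 2.52 ± 0.228 times Rspo1 (SD, n = 2). Rspo2 had 1 read in each uterus, and Rspo4 was listed at 0.

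Among their receptors Lgr4 lay at 12.5 and 12.2 RPKM on 243 and 262 reads, above Lgr6 at 2.30 and 1.62 RPKM in both uteri. Lgr4 was 6.47 ± 1.46 times Lgr6 (SD, n = 2). Lgr5, a known marker of epithelial stem cells in the gut and of immature uterine glands, lay at 0.443 and 0.549 RPKM on 8 and 11 reads, with a counting interval of 0.191 to 0.873 RPKM in uterus 1. It overlaps a gene on the other strand, A930009A15Rik, which lay at 0.518 RPKM in uterus 1 and was listed at 0 in uterus 2. Lgr4 was thus the only Lgr gene above 10 RPKM.

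Inside the cell, Ctnnb1, the β-catenin gene, was the highest of all 54 members. Ctnnb1 (NM_001165902, mm9, chromosome 9, 120842696 to 120869625) lay at 221 and 218 RPKM on 3075 and 3358 reads, above 99.2% of all genes. β-catenin also anchors cadherins at cell junctions, so its RNA is not a measure of WNT signalling. Axin1, a scaffold of the complex that breaks β-catenin down, lay at 16.1 and 14.5 RPKM. Axin2, a second scaffold and a widely used target of β-catenin, lay at 10.96 and 9.49 RPKM on 179 and 172 reads. Axin1 was 1.47 times Axin2 in uterus 1 and 1.53 times in uterus 2, and their values did not overlap.

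The 4 nuclear partners of β-catenin were all detected. Lef1 was highest at 14.0 and 12.04 RPKM, on about 132 and 126 reads. The length used for Lef1 was not settled, and its reads may be more than these or as few as 66 and 63. Tcf7 lay at 5.63 and 5.81 RPKM, Tcf7l2 at 5.27 and 4.80 RPKM and Tcf7l1, mostly a repressor, at 3.37 and 3.04 RPKM. The reads of Tcf7l1 came to 36 in each uterus by the matched length but could be as few as 3. Lef1 was 2.28 ± 0.294 times Tcf7 (SD, n = 2). Each gene in this order lay above the next in both uteri, but the counting intervals of Tcf7 and Tcf7l2, and of Tcf7l2 and Tcf7l1, overlapped in both, so the order of these 3 is not settled. In uterus 1 they ran from 4.15 to 7.46 RPKM for Tcf7, from 4.25 to 6.46 RPKM for Tcf7l2 and from 2.36 to 4.67 RPKM for Tcf7l1. Tcf7l1 overlaps Gm15401 on the other strand, which lay at 1.36 and 1.69 RPKM. Lef1 and Tcf7 are also used by T cells, and leukocyte markers summed to 43.3 and 48.8 RPKM over 5 genes, of which 4 were detected; their part in these levels was not tested.

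The distance between the 2 animals was near that of all genes for the members. Of the 36 members whose mean reached 1 RPKM, 14 were higher in uterus 2 and 22 in uterus 1, while 50.1% of all such genes were higher in uterus 2; this split was not tested. Their median log2 ratio of uterus 2 over uterus 1, after adding 0.1 RPKM, was -0.03, and over all 13647 such genes it was 0.0007. Of these members 27 of 36 were less than 1.25-fold apart, against 75.1% of all genes. Only 1 member, Wnt16, was at least 2-fold apart, against a background of 2.60% of all genes. Both shares are near the background and are not a result about the members.

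The recovered reads of the 2 libraries were also compared by a two-sided exact binomial test, with Benjamini-Hochberg adjustment over the 15108 genes with at least 6 reads in sum. It compares these libraries and not conditions. The test called 0 of 41 members tested, against a background of 4.77% of all genes, and 2 members had an unadjusted p under 0.05, against 15.8% of all genes. These were Dkk3 (p = 0.0030, adjusted p = 0.059 in the exact test, log2 ratio 0.32, higher in uterus 2) and Wnt16 (p = 0.0063, adjusted p = 0.098, log2 ratio -1.17, lower in uterus 2). The values of Wnt16 in this test rest on 30 and 14 reads, which could be as few as 15 and 7. Its p, and with it the count of 2 members, therefore depends on the reads chosen. A call that misses the threshold does not show that the animals were alike. With 1 library per animal, animal and library preparation cannot be told apart.

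**Figure D4:**
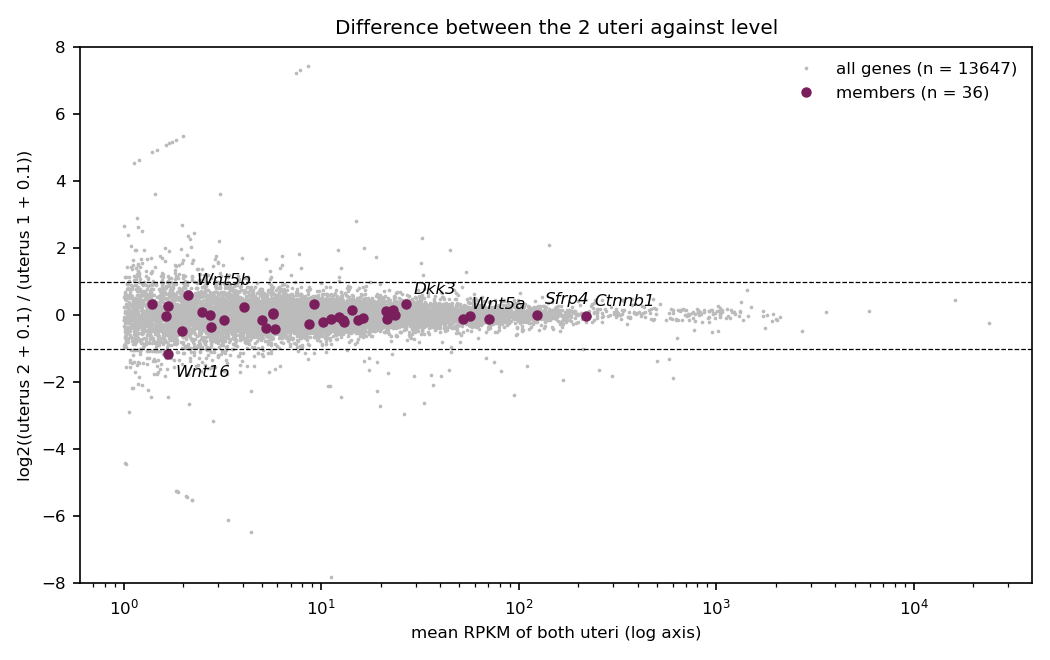
Log2 ratio of uterus 2 over uterus 1 (0.1 RPKM added) against mean RPKM (log axis) for the 13647 genes whose mean reached 1 RPKM and, in purple, the 36 members among them; dashed lines mark 2-fold. Wnt16 is the only member beyond a dashed line, at -1.17, and Dkk3 lies at 0.32.

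The rest of the pathway was read from 71 further genes, listed by role. Of these 60 (84.5%) were detected, against 58.4% of all genes, and 3 (Sost, Cer1 and Cdx1) were listed at 0 in both uteri, against 23.4% of all genes. The counts by role that follow stand against the same 58.4%, and since the genes were picked by name they describe the list only. Both genes of WNT secretion were detected: Wls, the carrier that takes lipid-modified WNT to the surface, lay at 70.8 and 75.1 RPKM, and Porcn, the enzyme that attaches the lipid, at 11.005 and 10.04 RPKM. The other receptors of the list were detected in 4 of 4 cases, with Ptk7 at 78.3 and 63.8 RPKM, Ryk at 38.6 and 44.9 RPKM, and Ror2, a receptor for Wnt5a, at 7.49 and 6.21 RPKM. Ror1 was lowest at 2.21 and 2.52 RPKM.

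The cytoplasmic genes were detected in 20 of 20 cases, led by the kinase gene Csnk1a1 at 181 and 193 RPKM, with Tnks2 at 55.2 and 58.5 RPKM and Csnk1d at 46.6 and 46.4 RPKM, and Apc2 lowest at 1.35 and 1.81 RPKM. Nuclear cofactors were detected in 12 of 13 cases, with the corepressor gene Aes at 88.4 and 91.6 RPKM, Ctbp1 at 72.4 and 63.3 RPKM, Tle1 at 34.6 and 34.6 RPKM and Tle6 lowest at 0.777 and 1.98 RPKM. The ubiquitin ligases Znrf3 and Rnf43, which remove Frizzled and which R-spondins oppose, lay at 5.29 and 4.28 RPKM and at 2.06 and 2.29 RPKM. Among extracellular modulators 7 of 12 were detected, with Igfbp4 highest at 351 and 371 RPKM, Sulf1 at 42.2 and 48.8 RPKM and Sulf2 at 36.3 and 34.1 RPKM. Of 11 genes known as targets in other tissues 7 were detected, with Myc at 39.0 and 37.9 RPKM, Ccnd1 at 41.2 and 35.7 RPKM and Ephb2 at 27.5 and 22.9 RPKM.

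**Figure D5:**
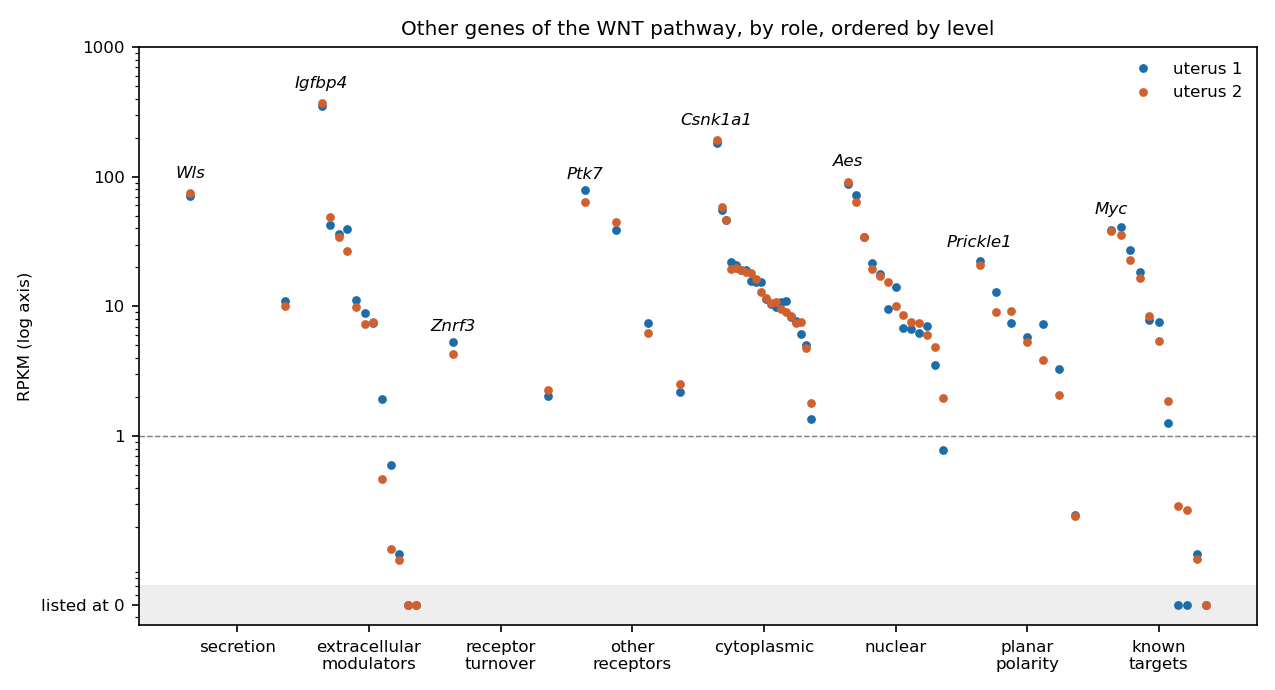
RPKM (log axis) of the 71 other pathway genes in uterus 1 and uterus 2 by role, each role ordered by mean level and its highest gene named; the dashed line marks 1 RPKM and the grey band holds values listed at 0. All 20 cytoplasmic genes lie above the line, while extracellular modulators run from Igfbp4 at 351 and 371 RPKM down to genes listed at 0.

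The reads of some of these genes differed between the 2 libraries by more than counting error. The exact binomial test covers counting error only and not the spread between animals, and it called 721 of 15108 genes over the whole table. It called 7 of 63 tested here, 6 higher in uterus 1 against a background of 2.55% of all genes, and 1 higher in uterus 2 against 2.22%. With the smallest possible reads the test called 579 of 14866 genes, and how many of these 7 calls remain is not given here. Of the 7 planar polarity genes, which orient cells within a sheet, 6 were detected and 3 were called. Prickle2 lay at 12.9 and 8.99 RPKM (adjusted p = 5.6e-05), Vangl2 at 7.27 and 3.85 RPKM (adjusted p = 0.041) and Celsr2 at 3.27 and 2.07 RPKM (adjusted p = 0.022) in the exact test. Prickle1, the highest of them at 22.3 and 20.7 RPKM, and Vangl1 at 7.40 and 9.18 RPKM were not called, and Celsr3 was lowest at 0.248 and 0.244 RPKM. The other calls were Ptk7 (adjusted p = 4.3e-05), Apcdd1, an inhibitor at 39.6 and 26.9 RPKM (adjusted p = 1.5e-05), Bcl9l at 14.0 and 10.1 RPKM (adjusted p = 0.0075) and, toward uterus 2, Sulf1 (adjusted p = 0.048) in the same exact test. Epithelial markers summed to 263 and 298 RPKM, gland markers to 53.6 and 83.0 RPKM, leukocyte markers to 43.3 and 48.8 RPKM and ovary and oviduct markers to 18.1 and 21.7 RPKM, all higher in uterus 2. Stromal markers summed to 4702 and 4406 RPKM, smooth muscle markers to 1612 and 1598 RPKM, endothelial markers to 135 and 131 RPKM, fat markers to 1.71 and 0.489 RPKM and blastocyst markers to 1.93 and 0.872 RPKM, all higher in uterus 1. No fat or blastocyst marker reached 1 RPKM in both uteri, and the smooth muscle sums were close. The directions of these lists are therefore not read as differences in tissue. The part of any marker list in the differences between the libraries was not tested. Vangl2, Celsr2, Apcdd1, Bcl9l and Frzb are named here after their values were seen. A difference between the members and this list was not tested.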

How the data were processed

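RNA of 2 whole uteri, 1 library each, was sequenced after poly-A purification, per the labels' protocols and design text. The authors normalized each gene to RPKM, per the labels. TopHat, edgeR and the build mm9 are named in the submitters' processing notes, while the gene models and strand setting used in counting are not given in the sources used here. Both deposited tables hold identical RPKM for all 22740 genes of the main table, and the second adds identifiers and coordinates, whose starts were read as counted from 0.

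Reads were recovered from RPKM. The value of 1 read came from single-exon genes, and each gene's value was then a ratio of whole numbers (relative tolerance 1e-12) for 17394 of 17426 genes above 0 (99.8%). A factor common to both reads was chosen by closeness to transcript lengths of the GENCODE M1 annotation, with a penalty on large factors, and 10 members have a factor above 1. Recovered reads came to 99.7% and 99.8% of the scaling totals of 3834174 and 4256101. Recovery and the binomial test were also run on simulated data. That run does not show which common factor is right for a gene of these data. Python 3.11.15, scipy 1.17.1 and pandas 2.3.3 were used.

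Means are given with the SD over 2 uteri. With 1 group no test between groups exists, and that the libraries are separate animals rests on the design text. Members with a mean of at least 1 RPKM are given with both values and others by counts, by name where listed at 0 or beside a neighbour, and the values of Wnt7b, Lgr5 and Sfrp5 and the reads of other low members were added after they were seen. Of the other pathway genes the 3 highest and the lowest of a role are named. The members, roles and lists were chosen with earlier results of these data known. Pseudocounts, thresholds, filters, scaling to TPM and read choices were varied. Intervals are exact Poisson at 95%. The gland gene Cxcl15 was not analysed here.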

Additional observations from a re-analysis of the deposited data

How the results depend on the processing

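The number of members detected ran from 30 (threshold of 2 RPKM) to 37 (TPM scale) over 5 alternatives, and that of other pathway genes from 58 to 62, all within 1.5 times. The TPM scale (each library rescaled to 1 total) changes the unit, and role medians of 0.505 (ligands), 5.76 (Frizzled receptors), 8.67 (inhibitors), 1.96 (R-spondins and Lgr receptors) and 12.7 RPKM (co-receptors and intracellular genes) became 1.19, 13.6, 20.5, 4.64 and 30.1. Without the members at 0 in 1 or both uteri the medians were, by construction, higher for ligands (1.76), Frizzled receptors (6.25), inhibitors (26.8) and R-spondins and Lgr receptors (5.57), and the same for co-receptors and intracellular genes, which had no member at 0. Leaving out either uterus moves a mean of 2 by less than 1 SD by construction: ligand medians were 0.359 and 0.650 RPKM. As a share of reads in place of RPKM, which favours long transcripts, Wnt5a held 68.4% of the ligands and Sfrp4 40.2% of the inhibitors. The count of members at least 2-fold apart was 0 with a pseudocount of 1 or a filter at a mean of 5 RPKM, 3 with a filter at 0.1 RPKM, 4 without a filter and 2 on the TPM scale, so it rests on genes with few reads. The exact binomial test called 0 members under all 3 alternatives run, with smallest adjusted p from 0.053 to 0.068, against 0.059. With the smallest possible reads it called 579 of 14866 genes, against 721 of 15108. No paired analysis was possible because both uteri belong to 1 group.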
